A study of Mus musculus with 6 samples.

Results

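The SIX-family genes examined here are *Six3*, its antisense partner *Six3os1*, *Six2*, *Six4*, *Six5* and *Six6*. Of these 6 genes, 5 were among the 32493 genes counted in cultured neural stem cells (NSCs). They were listed by symbol and matched to Ensembl identifiers, and the list was chosen by their levels and log2 fold changes in the same genotype comparison, which were known from earlier results. The log2 fold changes and calls of these genes in that comparison are therefore given as a description, without p-values. *Six3*, *Six3os1*, *Six4* and *Six5* had enough counts to enter the fit, *Six2* was counted but removed by the filter on low counts, and *Six6* was not analysed here.

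NSCs came from the brains of E14.5 mice, dissected around the lateral ventricles and grown for 3 generations in culture. In cko NSCs, the alleles of the microRNA gene miR-151 were floxed and Emx1-IRES-Cre, active in the dorsal telencephalon, was present. The ctrl NSCs had the same floxed alleles without Cre, and the sample labels call them wt. Both groups were on a C57BL/6J background, and RNA-seq was run on each. The study describes the dissected tissue in one place by the lateral ventricles and in another as cortex, and Emx1-IRES-Cre acts mainly on dorsal cells. The column of ctrl replicate 2 equalled the rounded-up mean of ctrl replicates 1 and 3 in 32493 of 32493 genes and was left out, so that 2 ctrl libraries were compared with 3 cko libraries. Total counts lay between 17883796 and 23335736 per library, which puts 3 counts, the smallest level taken as measurable, at 0.129 to 0.168 counts-per-million (CPM). The targeted miRNA was not analysed here and gave no check of the labels. The sources used here do not say whether libraries came from separate embryos, so p-values measure only the spread between these libraries.

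SIX-family proteins are transcription factors with a homeodomain, which binds DNA, and a neighbouring SIX-type domain, which binds partner proteins. They act with the EYA coactivators and DACH proteins or with Groucho (TLE) corepressors, a network first known from eye development. *Six3* specifies the anterior forebrain and the eye field, and *Six3os1* is a long noncoding RNA from the same locus that was described in the retina as acting together with SIX3 and EYA proteins. *Six6* is the close relative of *Six3* in the optic vesicle and the pituitary. *Six2* maintains nephron progenitors, *Six4* acts in muscle and sensory organs, and *Six5* lies beside *Dmpk*, the gene of myotonic dystrophy.

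*Six3* (ENSMUSG00000038805) is annotated by GENCODE M21 on the plus strand of GRCm38 chromosome 17 from 85613608 to 85629302. *Six3os1* (ENSMUSG00000093460) is annotated on the minus strand of the same chromosome from 85600651 to 85618398. The spans share 4791 bp, but the exons share only 106 bp, which is 1.95% of the exon bases of *Six3* and 0.892% of those of *Six3os1*. The shared exon is a short upstream one of *Six3*. The transcription start that RefSeq gives for *Six3*, at 85620834, coincides with the second exon block and lies 2438 bp from the start of *Six3os1*, so that these transcripts point away from each other. Since the use of strand in counting is not stated, reads in the shared 106 bp cannot be assigned to either gene. *Gm28528*, a second antisense gene, shares 168 bp of exon with *Six3*. *Six2* (ENSMUSG00000024134) lies on the minus strand from 85684277 to 85688274, with its start 74666 bp from the annotated 5′ end of *Six3*. *Six4* (ENSMUSG00000034460) occupies the minus strand of chromosome 12 from 73099609 to 73113456, and *Six6* (ENSMUSG00000021099) starts 173564 bp away on the plus strand, from 72939892 to 72944899. *Six5* (ENSMUSG00000040841) lies on the plus strand of chromosome 7 from 19094594 to 19098549.

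**Figure D1:**
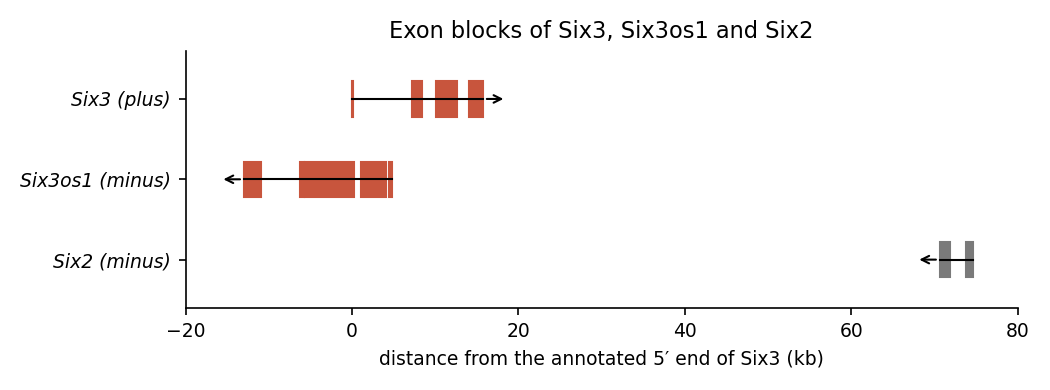
Exon blocks (boxes) of *Six3*, *Six3os1* and *Six2*, the union of all annotated transcripts, against the distance in kb from the annotated 5′ end of *Six3*; arrows give the direction of transcription. Only the short first block of *Six3* falls within an exon block of *Six3os1*, and *Six2* lies about 70.7 to 74.7 kb downstream.

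The promoters of the 4 genes with usable counts are printed so that those of the genes at lower level in cko NSCs can be read beside that of *Six4*. Each holds 250 bases before and 50 bases after the RefSeq start on GRCm38.p6, 5′ to 3′ on the gene's strand, and capitals mark CCAAT or its reverse complement ATTGG. The *Six4* promoter shown is that of the 2 RefSeq starts that lies nearest to the GENCODE start.
*Six3*, chr17:85620584-85620883, plus strand: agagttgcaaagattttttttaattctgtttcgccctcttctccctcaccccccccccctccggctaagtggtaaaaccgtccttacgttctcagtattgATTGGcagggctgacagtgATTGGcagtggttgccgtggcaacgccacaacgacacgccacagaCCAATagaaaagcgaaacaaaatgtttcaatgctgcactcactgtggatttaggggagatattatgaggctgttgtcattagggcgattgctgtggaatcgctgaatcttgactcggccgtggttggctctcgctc
*Six3os1*, chr17:85618347-85618646, minus strand: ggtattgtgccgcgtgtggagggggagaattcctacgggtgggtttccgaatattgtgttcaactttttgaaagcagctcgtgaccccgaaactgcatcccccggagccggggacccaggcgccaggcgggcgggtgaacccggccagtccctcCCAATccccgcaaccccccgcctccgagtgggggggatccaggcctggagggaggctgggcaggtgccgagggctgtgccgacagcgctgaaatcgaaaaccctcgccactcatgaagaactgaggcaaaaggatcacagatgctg
*Six5*, chr7:19094294-19094593, plus strand: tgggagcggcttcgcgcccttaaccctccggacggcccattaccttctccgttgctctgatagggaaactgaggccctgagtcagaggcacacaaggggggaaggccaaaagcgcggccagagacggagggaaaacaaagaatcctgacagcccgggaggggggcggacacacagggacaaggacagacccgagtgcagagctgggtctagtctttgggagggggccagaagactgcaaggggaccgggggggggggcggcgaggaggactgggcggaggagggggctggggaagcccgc
*Six4*, chr12:73113376-73113675, minus strand: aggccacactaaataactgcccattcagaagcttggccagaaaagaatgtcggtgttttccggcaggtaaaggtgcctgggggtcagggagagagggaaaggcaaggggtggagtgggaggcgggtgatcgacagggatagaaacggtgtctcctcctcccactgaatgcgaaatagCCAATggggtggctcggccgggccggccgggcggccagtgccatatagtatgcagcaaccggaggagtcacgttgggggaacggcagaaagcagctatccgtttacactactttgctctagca

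CCAAT, searched on both strands, occurred 3 times in the *Six3* promoter, once in those of *Six3os1* and *Six4*, and not in that of *Six5*. Of 32851 mouse promoters of the same length, 37.4% held at least 1 match. TAATTA, the core bound by many homeodomains, and TGGGAA, the core bound by the Notch effector RBPJ, had no match on either strand in any of these 4 windows, against 5.29% and 25.6% of all promoters. The 4 windows held 14, 20, 17 and 15 CpG dinucleotides in the order printed, against a median of 7 over all promoters. Their GC content was 50%, 63%, 66% and 57.3%, against a median of 52.7%. All 4 were thus richer in CpG than the median promoter, *Six4* no less than *Six3*.

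The question put to these libraries was which genes differ between NSCs with and without miR-151. In *Six3*, *Six3os1* and *Six5* every cko library lay below every ctrl library, while the genotypes overlapped in *Six4*. Levels are given as CPM normalized by TMM, a scaling of the library totals. *Six3os1* was measured at 88.6 and 81.6 CPM in ctrl libraries 1 and 3, from 2031 and 1531 counts. In cko libraries 1, 2 and 3 it was at 5.20, 4.03 and 4.41 CPM, from 93, 94 and 96 counts. The lowest ctrl library thus stood far above the highest cko library, and the cko libraries lay close together. The mean fell from 85.1 ± 4.96 (SD, n = 2) to 4.54 ± 0.598 CPM (SD, n = 3), a log2 fold change of -4.23 (standard error 0.12) or 18.8-fold.

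*Six3* was at 30.0 and 24.2 CPM in the ctrl libraries, from 688 and 454 counts. The cko libraries held 2.29, 1.84 and 1.42 CPM, from 41, 43 and 31 counts. Relative to their means, both genotypes spread more widely in *Six3* than in *Six3os1*, again without overlap. The means were 27.1 ± 4.12 (SD, n = 2) and 1.85 ± 0.434 CPM (SD, n = 3), a log2 fold change of -3.88 (standard error 0.21), which is 14.7-fold. Counted from the lowest log2 fold change, *Six3os1* had rank 20 and *Six3* rank 31 among the 16710 genes tested. Among the 7386 genes whose mean ctrl level was at least that of *Six3*, the ranks were 2 and 7. These genes were chosen by this same comparison, so the ranks are a description from which nothing is read.

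*Six5* was at 21.4 and 21.8 CPM in ctrl libraries 1 and 3, and at 4.75, 4.62 and 4.96 CPM in cko libraries 1, 2 and 3. These are 491 and 409 against 85, 108 and 108 counts. Replicates of *Six5* agreed more closely than those of *Six3* or *Six3os1*, with means of 21.6 ± 0.266 (SD, n = 2) and 4.78 ± 0.168 CPM (SD, n = 3). Its log2 fold change was -2.18 (standard error 0.13), or 4.52-fold, a smaller difference than in the *Six3* pair. *Six4* was at 7.94 and 7.62 CPM in ctrl and at 9.0, 7.49 and 7.48 CPM in cko libraries. The genotypes overlapped, and its log2 fold change was 0.04 (standard error 0.17). *Six2* had 5 counts in ctrl library 1 and 0 in the other 4 libraries, so that no difference was detectable at this depth.

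In the fit across 16710 genes, *Six3*, *Six3os1* and *Six5* were past a Benjamini-Hochberg adjusted p under 0.05 in the lower direction in edgeR's quasi-likelihood test, as were 8.57% of all genes tested. No member was called higher, against 7.86% of all genes, and 16.4% of all genes were called in either direction. At the threshold used in the study, a log2 fold change beyond 0.9 with an unadjusted p under 0.01, the same 3 members were called lower, against 4.17% of all genes, and no member was called higher, against 2.39%. In these 3 genes the groups did not overlap, with cko below ctrl, as in 24.2% of all genes. Cko lay above ctrl in no member, against 25.4% of all genes, and the groups did not overlap in either direction in 49.7% of all genes. Because the same comparison was used in choosing the genes, nothing is read from these counts. The log2 fold change stayed between -4.05 and -3.73 for *Six3*, between -4.34 and -4.15 for *Six3os1*, between -2.21 and -2.15 for *Six5* and between -0.06 and 0.08 for *Six4* over the 11 other fits, those without each library included. In bulk libraries, fewer cells that express a gene and less RNA per cell cannot be told apart.

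**Figure D2:**
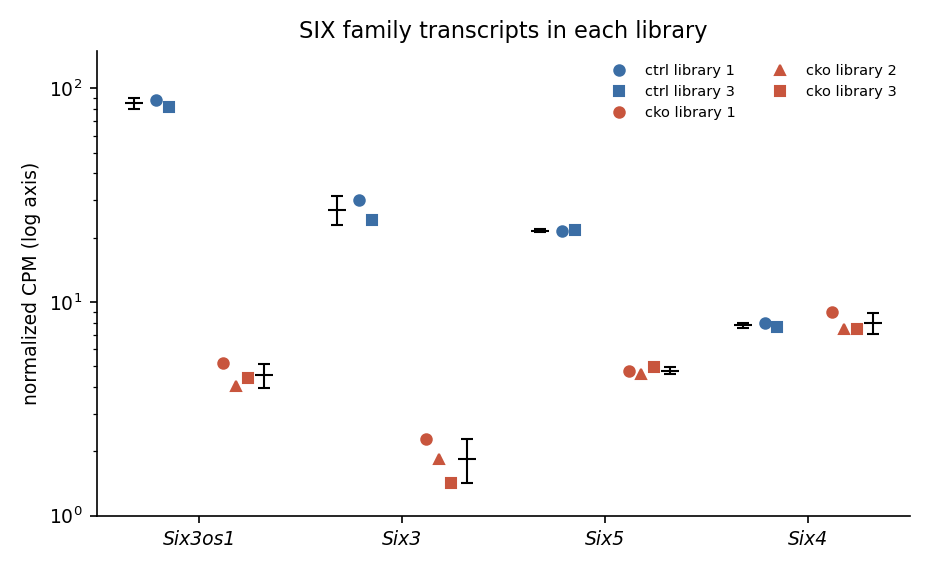
Normalized CPM (log axis) of *Six3os1*, *Six3*, *Six5* and *Six4* in each of the 2 ctrl (blue) and 3 cko (red) libraries; black bars give the mean ± SD of each genotype. The cko points lie below the ctrl points in all of these genes but *Six4*. There the ctrl points, at 7.94 and 7.62 CPM, lie within the cko range of 7.48 to 9.0 CPM.

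The balance of *Six3os1* and *Six3* did not separate the genotypes, whereas the level of each transcript did. Of the counts of the pair, *Six3os1* held 74.7% in ctrl library 1 (95% Wilson interval 73.0 to 76.3, 2719 counts) and 77.1% in ctrl library 3 (75.2 to 78.9, 1985 counts). In the cko libraries it held 69.4% (61.2 to 76.6, 134 counts), 68.6% (60.4 to 75.8, 137 counts) and 75.6% (67.4 to 82.2, 127 counts). The cko intervals were wide because few reads were left, and each overlapped the intervals of both ctrl libraries. These intervals cover counting error only. Reads are not independent molecules.

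**Figure D3:**
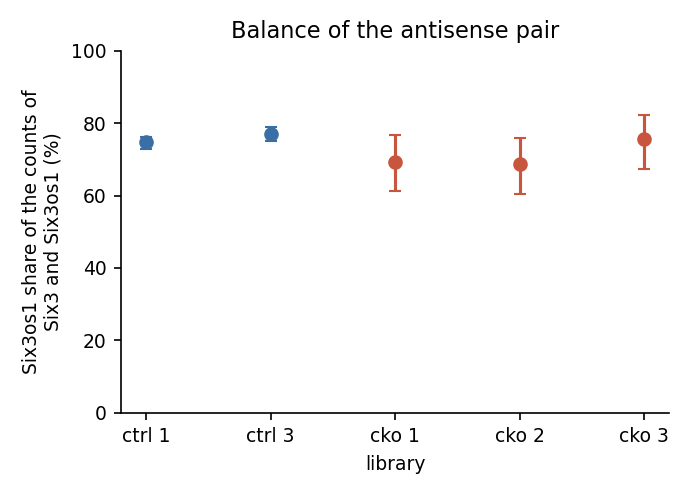
Share of *Six3os1* in the summed counts of *Six3* and *Six3os1* (percent) in each library, with 95% Wilson intervals as bars; ctrl in blue, cko in red. The shares lie between 68.6% and 77.1%, and every cko interval overlaps both ctrl intervals.

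Per kb of annotated exon, the order of the genes differed between the genotypes. In ctrl NSCs, *Six5* stood at 7.19 ± 0.0884 CPM per kb (SD, n = 2) and *Six3os1* at 7.16 ± 0.417, neighbours in this order whose libraries overlapped. *Six3* followed at 4.98 ± 0.756 and *Six4* at 0.717 ± 0.0208 CPM per kb, without overlap between them or with the genes above. In cko NSCs, *Six5* remained the highest at 1.59 ± 0.0559 CPM per kb (SD, n = 3), and *Six4* came next at 0.736 ± 0.0803. *Six3os1* at 0.382 ± 0.0503 and *Six3* at 0.340 ± 0.0798 CPM per kb were the lowest and overlapped each other. The value of *Six3os1* rests on 11884 bp of exon pooled from 13 annotated transcripts, and a shorter transcript in these cells would have a higher level per kb.

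Chromosomal neighbours of these genes were called at 5 of 23, against 16.4% of all genes in either direction. The 5 nearest protein-coding genes on each side of 3 loci, *Six3* with *Six2*, *Six6* with *Six4*, and *Six5*, gave 23 tested genes, of which 2 rose and 3 fell, with a median log2 fold change of -0.05 against -0.0026 over all genes tested. On chromosome 17, 7 of 8 tested neighbours did not pass the test. Among them were *Prepl*, which encodes a peptidase-like protein, at -0.12 (edgeR adjusted p = 0.315) and the phosphatase gene *Ppm1b* at -0.12 (edgeR adjusted p = 0.278). The exception was the hypoxia factor gene *Epas1*, 1065 kb beyond *Six2*, which fell by 1.27 on the log2 scale (edgeR adjusted p = 0.0101). Without cko library 2 or 3, *Epas1* was no longer past the threshold, with an adjusted p of up to 0.0582. *Gm28528*, which overlaps *Six3* on the other strand, had 13 counts in each ctrl library and 0, 0 and 1 in the cko libraries. It was called lower (edgeR adjusted p = 0.0121), with a fitted log2 fold change of -4.86 that rests on a single cko count.

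Around *Six4*, 6 of 7 tested neighbours did not pass the test, among them the phosphatase gene *Ppm1a* at -0.10 and *Pcnx4* at 0.20 (edgeR adjusted p = 0.365 and 0.273). *Prkch*, a protein kinase C gene 471 kb away, rose from 1.08 ± 0.287 (SD, n = 2) to 4.33 ± 0.810 CPM (SD, n = 3), a log2 fold change of 2.02 (edgeR adjusted p = 0.00675). Beside *Six5*, the kinase gene *Dmpk* was at 53.4 and 52.0 CPM in ctrl and at 36.0, 36.6 and 37.6 CPM in cko libraries. It fell by 0.52 on the log2 scale (standard error 0.08, edgeR adjusted p = 0.0062), a smaller difference than that of *Six5*, and remained past the threshold in all 11 alternative fits. *Snrpd2*, which encodes a spliceosome core protein, rose by 0.29 (edgeR adjusted p = 0.0382), and *Gipr*, an incretin receptor gene with 2 to 48 counts per library, fell with a log2 fold change of -3.0 (edgeR adjusted p = 0.0355). Both lost the call when ctrl library 3 or any single cko library was left out, with adjusted p-values of up to 0.142 and 0.196, and *Snrpd2* also without a filter on low counts. *Sympk* and *Dmwd* did not pass (-0.15 and -0.05, edgeR adjusted p = 0.193 and 0.787).

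**Figure D4:**
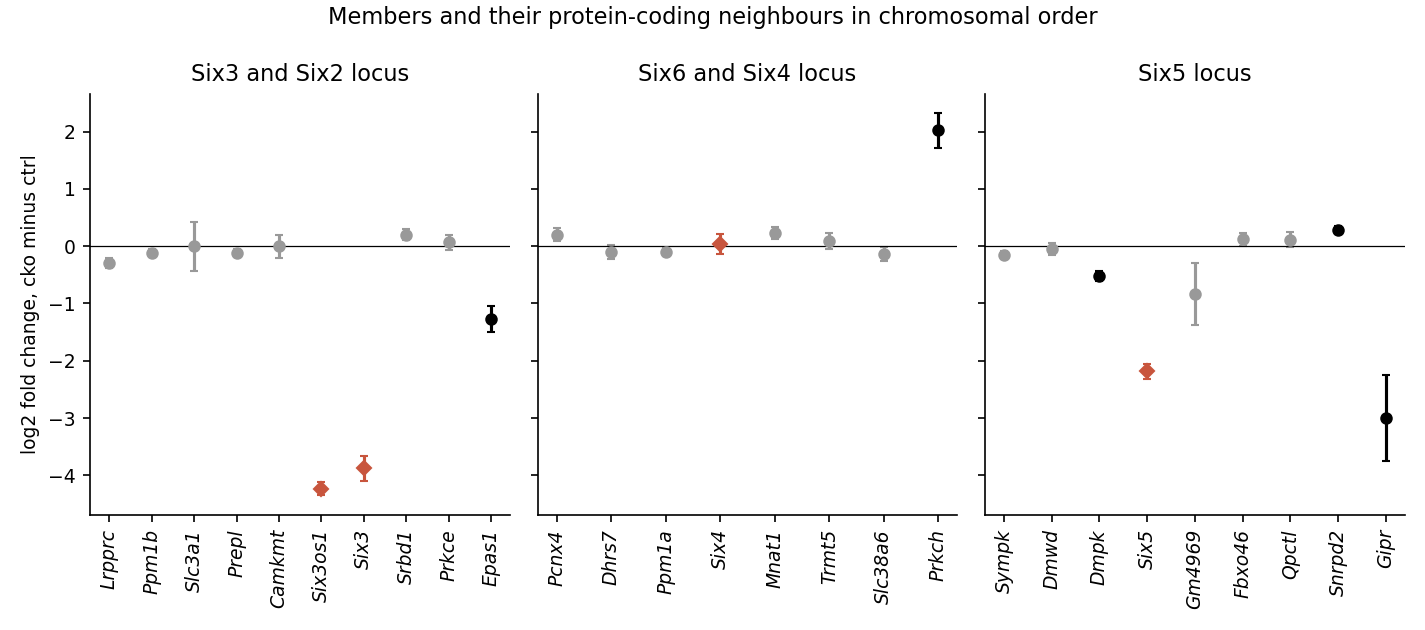
Log2 fold change, cko minus ctrl, with its standard error, for the members (red diamonds) and the tested protein-coding neighbours in chromosomal order (black, adjusted p under 0.05; grey, not past it). *Six3* and *Six3os1* at -3.88 and -4.23 lie below every protein-coding gene plotted on either side in their own panel, the lowest of which is *Epas1* at -1.27, and *Six4* at 0.04 lies among its neighbours. In the *Six5* panel, *Gipr* at -3.0 (standard error 0.75) lies below *Six5* at -2.18.

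Of the partners of SIX-family proteins, the EYA family changed in both directions. *Eya2* was at 6.02 and 6.45 CPM in ctrl, against 0.447, 0.600 and 0.505 CPM in cko libraries. Its difference, a log2 fold change of -3.56 with a standard error of 0.26 (edgeR adjusted p = 0.000879), was close in size to that of *Six3*. *Eya1* moved the other way, from 36.9 and 45.1 CPM in ctrl to 79.5, 91.2 and 93.8 CPM in cko libraries. It rose by 1.11 (standard error 0.12, edgeR adjusted p = 0.00229). *Eya4* rose from 7.64 ± 0.501 (SD, n = 2) to 14.8 ± 2.12 CPM (SD, n = 3), a log2 fold change of 0.95 (edgeR adjusted p = 0.0118, and 0.0698 without cko library 3). *Eya3*, at 57.8 ± 1.24 and 59.9 ± 3.74 CPM, had a log2 fold change of 0.05 (edgeR adjusted p = 0.723). The most abundant EYA genes in CPM were thus *Eya3* and *Eya1*, and the one that fell was the least abundant.

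*Gmnn* encodes geminin, which binds SIX3 and also restrains DNA replication licensing. It rose from 13.6 ± 0.464 (SD, n = 2) to 26.7 ± 3.63 CPM (SD, n = 3), a log2 fold change of 0.97 (edgeR adjusted p = 0.0062). The cofactor genes *Dach1* (0.49, edgeR adjusted p = 0.0975) and *Dach2* (-1.38, adjusted p = 0.0534) did not pass, and *Dach2* was at 5.85 and 2.45 CPM in the ctrl libraries. *Dach2* was lower at the study's threshold and was called in 5 of 11 alternative fits, DESeq2 included, with adjusted p-values from 8.66e-05 to 0.268. None of the 6 tested Groucho genes was called over the 5 libraries in the main edgeR fit or by DESeq2. Their log2 fold changes ran from -0.20 in *Tle4* (edgeR adjusted p = 0.156) to 0.40 in *Aes* (adjusted p = 0.142), with a median of 0.28 and 1 gene at an unadjusted p under 0.05. The ctrl libraries differed widely in some of them, as in *Tle1* at 178 and 93.7 CPM. Over both groups of partners, 3 of 13 tested genes rose and 1 fell, against 7.86% and 8.57% of all genes tested. Without ctrl library 3, 9 of 13 were called, among them the Groucho genes *Tle2*, *Tle4*, *Tle6* and *Aes*. *Tle1* was called without ctrl library 1, *Tle1* and *Aes* without a filter on low counts, and *Tle4* with all 6 columns.

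**Figure D5:**
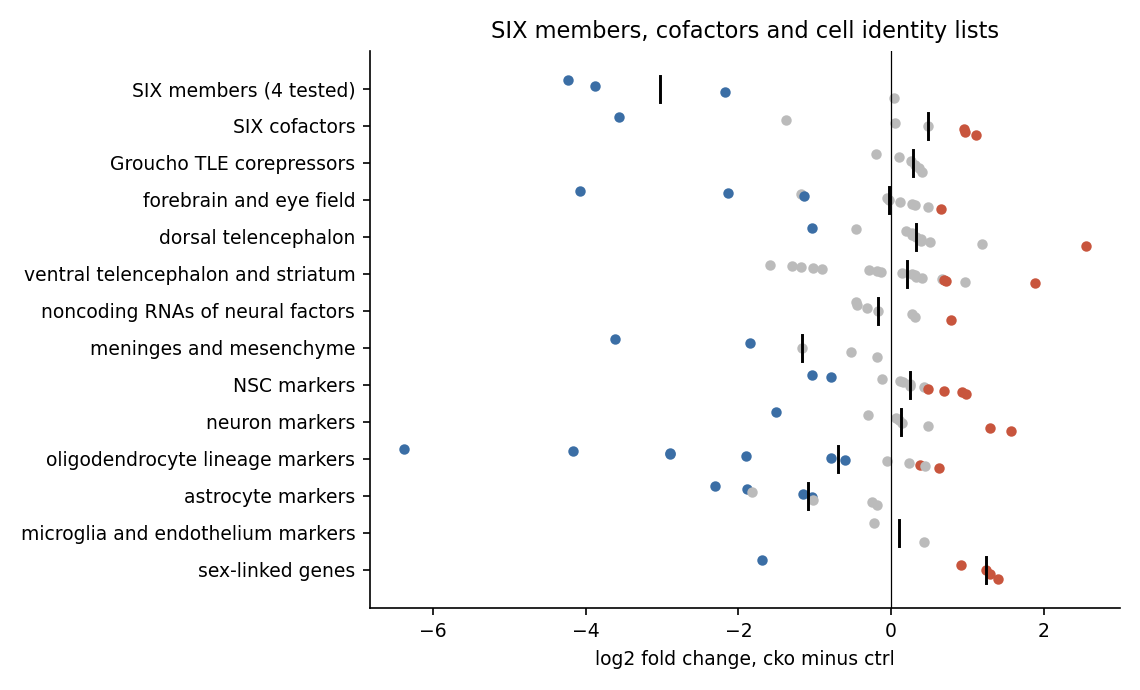
Log2 fold change, cko minus ctrl, of each tested gene in the SIX-family set, the partner lists and the cell identity lists (red, higher and blue, lower at an adjusted p under 0.05 in edgeR; grey, not past it); black ticks mark medians. *Six3os1*, *Six3* and *Six5* lie at or below -2.18, a range that *Eya2*, *Bmp4*, *Tbx18*, *S100b* and oligodendrocyte genes also reach.

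Genes that act with or next to *Six3* in the anterior forebrain and eye field were mixed. Of 11 tested genes, 1 rose and 3 fell, against 7.86% and 8.57% of all genes tested. The median was -0.03. *Otx2*, a homeobox gene of the forebrain and eye, fell from 7.75 ± 0.942 (SD, n = 2) to 1.76 ± 0.515 CPM (SD, n = 3), a log2 fold change of -2.13 (edgeR adjusted p = 0.00368). *Tcf7l2*, a nuclear effector of Wnt signaling, fell by 1.14 (edgeR adjusted p = 0.00259). *Bmp4*, a ligand gene, had 13 counts in each ctrl library and 0, 1 and 1 in the cko libraries (edgeR adjusted p = 0.0127). *Lhx2*, which specifies the eye field and the cortex, rose by 0.65 (edgeR adjusted p = 0.00524). *Sox2*, which marks NSCs, did not pass, at a log2 fold change of 0.12 (edgeR adjusted p = 0.314). The retinal gene *Vsx1* had at most 1 count in any library and *Crx* had 0 counts. *Vax1* had 6 and 8 counts in ctrl and 0, 1 and 1 in cko libraries, *Fezf1* 5 and 4 against 0, 0 and 0, and *Nkx2-1* 5 and 3 against 0, 0 and 0, all too few to be tested. *Wnt8b*, also untested, had 2 and 2 counts against 0, 1 and 0. Some other untested genes of this list were not lower in cko, as in *Vax2*, with 1 and 0 counts against 0, 5 and 10. *Fgf8* had 6 and 4 counts against 3, 11 and 9.

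In the embryo *Six3* is expressed in the ventral telencephalon, and markers of dorsal and ventral identity were therefore read beside it. Of 18 tested ventral and striatal genes, 3 rose and none fell, against 7.86% and 8.57% of all genes tested. Their median was 0.21, with negative log2 fold changes in 8. *Meis2*, which marks striatal progenitors, rose by 0.72 (edgeR adjusted p = 0.011), the GABA synthesis gene *Gad1* by 0.69 (adjusted p = 0.0342) and *Ppp1r1b*, which encodes DARPP-32 of striatal neurons, by 1.88 (adjusted p = 0.0184). Among those below 0, and named after their values were seen, were the interneuron and striatal factor genes *Dlx1* (-1.02, edgeR adjusted p = 0.176), *Dlx2* (-1.18, adjusted p = 0.0826) and *Sp9* (-0.90, adjusted p = 0.124) and the dopamine receptor gene *Drd1* (-1.59, adjusted p = 0.112). Each of these 4 lay lower in every cko than in every ctrl library without passing the test. Over all genes tested, cko lay below ctrl without overlap in 24.2% and above it in 25.4%. *Sp8* of the same list, likewise named after its values were seen, lay higher in every cko than in every ctrl library. Its log2 fold change was 0.97 (edgeR adjusted p = 0.0583). Of 11 dorsal genes, *Lhx9* rose by 2.55 from a mean of 0.179 CPM (edgeR adjusted p = 0.0393) and *Gli3* fell by 1.04 (adjusted p = 0.0269). *Nr2f1* and *Emx2* did not pass (0.28 and 0.19, edgeR adjusted p = 0.0999 and 0.191). *Emx1*, whose locus drives the Cre, had 10, 9, 1, 4 and 6 counts in ctrl libraries 1 and 3 and cko libraries 1, 2 and 3. Summed over each list, the ventral genes stood at 288 to 321 CPM in ctrl and 411 to 419 CPM in cko libraries and the dorsal genes at 188 to 195 and 211 to 234 CPM. The most abundant gene of each list, *Meis2* at 121 and 199 CPM in the ctrl and cko means and *Nr2f1* at 101 and 123 CPM, made up much of these sums.

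Other noncoding RNAs transcribed beside neural transcription factor genes were read next to *Six3os1*. Of 7 such genes that could be tested, only *Pantr1* was called, and it rose by 0.79 (edgeR adjusted p = 0.00159). Over all genes tested, 16.4% were called in either direction. *Sox2ot* had a log2 fold change of -0.32 (edgeR adjusted p = 0.236) and *Emx2os* of 0.28 (adjusted p = 0.276). *Dlx6os1* had 0 to 4 counts per library, too few to test.

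The cultures expressed the NSC genes *Nes*, *Vim*, *Sox2* and *Fabp7*, with the 12 genes of the NSC list summing to 7839 to 8940.2 CPM in ctrl and 9291 to 10039.7 CPM in cko libraries. Of these 12, 4 rose, such as *Nes* by 0.98 and *Hes5* by 0.93, and 2 fell, among them *Hes1* by 1.04 (edgeR adjusted p = 0.00287, 0.00107 and 0.00588). Of 8 tested neuronal genes, *Syt1* and *Elavl4* rose and *Dcx* fell. Some marker genes of other cells also differed between the genotypes. For all of these lists, the share over all genes tested was 7.86% called higher and 8.57% called lower. Of 12 oligodendrocyte lineage genes, 7 fell and 2 rose, among them *Mag* (84 and 48 counts against 0, 2 and 0), *Mbp* (log2 fold change -4.16) and *Myrf* (-2.90). The list summed to 3259.9 to 3887 CPM in ctrl and 3543 to 3789.8 CPM in cko libraries, with *Olig1* and *Olig2* higher and *Pdgfra* and *Cspg4* not past the threshold. Of 8 astrocyte genes, 4 fell, *S100b* (-2.31) and *Gja1* (-1.88) by the most, and none rose, and the list summed to 2253 to 3238 CPM in ctrl and 1037 to 1703 CPM in cko libraries. Of 5 tested meningeal and mesenchymal genes, *Foxc1* (-1.85, edgeR adjusted p = 0.00253) and *Tbx18* (adjusted p = 0.0355, with 18 and 17 counts against 0, 0 and 4) fell, and the list summed to 60.5 to 71.2 and 46.4 to 47.6 CPM. Microglial and endothelial genes summed to 4.67 to 6.75 CPM per library, most of it from *Kdr*, and *Cx3cr1* had 0 counts. *Xist* was at 2885 and 2554 CPM in ctrl and at 786 to 893 CPM in cko libraries, while the Y-linked *Eif2s3y* was at 32.6 and 34.6 CPM against 73.9 to 87.4 CPM. Of the 5 sex-linked genes, *Xist* fell and the 4 Y-linked genes rose. The part of these cell types and of sex in the lower *Six3*, *Six3os1* and *Six5* was not tested.

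The genes with profiles most like those of the members over the 5 libraries were named by the root mean square distance between log2(CPM + 0.5) profiles, each centred on its own mean. These profiles hold mostly the genotype difference. For *Six3os1* the nearest genes were *Fa2h*, which encodes the fatty acid hydroxylase of myelin galactolipids, at a distance of 0.217, *Bcas1*, a gene of early myelinating oligodendrocytes, at 0.266, and *Six3* itself at 0.298. *Fa2h* was at 21.3 and 25.9 CPM in ctrl and at 1.06, 0.642 and 1.29 CPM in cko libraries. For *Six3* they were *Bcas1os2*, a noncoding gene named for its place opposite *Bcas1*, at 0.256, the kinase gene *Cdk18* at 0.259 and the G protein subunit gene *Gng4* at 0.278. In that order their log2 fold changes were -4.65, -5.47 and -5.23, larger falls than the -3.88 of *Six3*. Their cko means of 0.394, 0.178 and 0.122 CPM lay below the added 0.5 CPM, which narrows such differences in the profiles. *Six5*, added after its values were seen, lay nearest to *Nfasc*, an adhesion gene of axons and glia (0.0896), *1700029J07Rik* (0.0977) and *Igfbp5*, which encodes an IGF binding protein (0.102).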

How the data were processed

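RNA-seq was run by the authors on E14.5 NSCs of ctrl and cko mice. They checked reads with FastQC, filtered them with NGSQC and aligned them to mm10 with HISAT2, whereas the sample labels name GRCm39, and compared the groups with DESeq2. The deposited values are raw counts per Ensembl gene, without normalization; the counting tool, annotation and use of strand are not given in the sources used here. GENCODE M21 (GRCm38) matched 31829 of 32493 identifiers and gave all positions and exon lengths; promoters came from RefSeq on GRCm38.p6, which held all 6 members.

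Counts of 5 libraries were filtered, scaled by TMM and tested with edgeR 4.0.16 (quasi-likelihood, R 4.3.3), with Benjamini-Hochberg adjustment over 16710 genes. Fold changes are log2, cko minus ctrl, errors are SD over libraries and standard errors come from the F statistic. Alternatives were DESeq2 1.42.0, median-of-ratios scaling, other filters, all 6 columns, a replicate block, leaving out each library and the study's threshold (log2 fold change beyond 0.9, unadjusted p under 0.01). The steps were tested on simulated data. Members, lists and tests were chosen with earlier results of these data known. The use of 5 libraries follows the relation of the ctrl 2 column to ctrl 1 and 3. Genes named are the members; in each list up to 4 called genes with the largest change and up to 2 uncalled genes with the highest CPM; and the 3 nearest profiles, with a few others marked or given as counts. The marker lists are given mainly by counts and sums. Figures were drawn with matplotlib 3.10.9. Some genes that the rule would name are not reported here.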

Additional observations from a re-analysis of the deposited data

How the results depend on the processing

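*Six3*, *Six3os1* and *Six5* were past the threshold, in the lower direction, in all 12 alternatives, and none of the 11 other values of each member moved by more than the spread between libraries. Counts over all genes moved. Genes lower in cko numbered 1432 (2237 without a filter, 2794 with all 6 columns, 696 at the study's threshold, 416 to 2062 leaving out a library), and genes higher in cko 1314 (2865 with all 6 columns, 399 at the study's threshold, 317 to 1812 leaving out a library). The fewest calls came without cko library 2 (416 lower and 317 higher) and without cko library 3 (457 and 336). Without cko library 1 they were 907 and 853. Called partner genes numbered 4 (8 without a filter, 7 with all 6 columns, 3 to 9 leaving out a library, the 9 without ctrl library 3), and called neighbours 5 (8 with all 6 columns, 3 at the study's threshold, 2 to 6 leaving out a library, with 2 without cko library 2 or 3, and 3 without ctrl library 3 or cko library 1). Leaving out a library removes samples, and the all-6-column fit counts an averaged column as a library; the cause of the other shifts was not tested. The replicate number as a block gave 1065 lower and 918 higher genes, 3 members, 4 partners and 4 neighbours called (*Snrpd2* lost its call); libraries with the same number correlated at 0.143 and 0.0507 in their deviations, and the numbers were not taken as pairs. At 31 to 43 counts of *Six3* per cko library, depth limits the precision of its share of the pair.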
